A study of Mus musculus with 6 samples.

Results

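The mitochondrial protein import machinery was taken as the protein-coding genes of the deposited expression table whose symbols begin with Timm or Tomm, together with Samm50, Mtx1, Mtx2, Mtx3, Pam16, Dnajc19, Grpel1, Grpel2, Hspa9, Pmpca and Pmpcb. This choice by name gave 37 of the 54532 genes listed and used no measured value. RNA sequencing covered 6 libraries from N2a, a mouse neuroblastoma line, of which 3 had received the control siRNA (si-NC) and 3 an siRNA against the circular RNA circRtn4 (si-circRtn4). Both groups were grown in minimum essential medium with fetal bovine serum, and the labels give C57BL/6 as the strain. In the study's text, C57BL/6 is named for the mice and the primary neurons, and no strain is given for N2a. The study's general methods add a step with retinoic acid after transfection, whereas the labels do not say whether these cultures were differentiated. The values are FPKM, read numbers corrected for gene length and sequencing depth, so that levels of different genes can be set side by side.

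Nearly all mitochondrial proteins are encoded in the nucleus, made in the cytosol and imported. The translocase of the outer membrane (TOM) is the common entry gate, the sorting and assembly machinery (SAM) inserts β-barrel proteins into the outer membrane, and small TIM chaperones carry hydrophobic precursors across the intermembrane space. The TIM22 complex inserts carrier proteins into the inner membrane, while the TIM23 complex and its Hsp70 motor pull precursors with a presequence into the matrix, where a protease removes the presequence. Neurons depend on mitochondria in long processes, and loss of some of these components is known to cause disease of the nervous system.

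After si-circRtn4, 2 genes of the import machinery were higher and 0 were lower among the 34 that could be tested. They were Timm8a1, a small TIM chaperone, and Grpel2, a nucleotide exchange factor of the matrix Hsp70. Their mean levels were 131% and 133% of the si-NC level. With replicate number as a block in the fit 3 were called higher and 1 lower, adding Samm50 and Pmpca, and with any 1 library left out 0 were called. The other 32 genes lay between -0.20 and 0.25 on the log2 scale and did not pass the test without the block. These 2 genes are 5.88% of those tested, where 9.19% of all 12749 genes tested were called in either direction, 4.36% higher and 4.82% lower. With the block the shares called were 11.8% of the import genes and 19.0% of all genes tested. Over all genes tested, 556 were called higher and 615 lower. With 1 library left out, these numbers also fell, to 163 to 407 higher and 217 to 419 lower. The test was limma on log2(FPKM + 1) with Benjamini-Hochberg adjustment over all genes whose mean reached 1 FPKM, and a gene was called at an adjusted p under 0.05. A change in a bulk sample cannot tell fewer cells of a type from less RNA per cell.

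The libraries held 14100818 to 14748929 reads on genes in si-NC and 13541198 to 15122063 in si-circRtn4. Rtn4, the host gene of circRtn4, had a log2 fold change of -0.22 (standard error, SE, 0.10, limma adjusted p = 0.216, and 0.0447 with replicate number as a block). Its FPKM does not separate circular from linear RNA. By qRT-PCR in N2a cells, the study reported an efficient knockdown of circRtn4 and no significant change of linear Rtn4. Of 11 neuroblastoma markers, 8 were at 1 FPKM or more in every library, whereas Dbh and Th were below 1 FPKM after si-circRtn4. The marker sum was 1270 to 1351 FPKM in si-NC and 784 to 1065 FPKM in si-circRtn4. Of 13 markers of other cell types, 1 reached 1 FPKM (Mbp, at most 4.60 FPKM), and Aqp4 and Epcam were at 0. The summed glial markers were at 3.98 to 4.99 FPKM in si-NC and 2.94 to 4.59 FPKM in si-circRtn4, and no other of these lists exceeded 0.777 FPKM. The neuroblastoma sum moved with the groups, and its part in the results below was not tested. This sum is carried mainly by its most abundant markers, and the markers did not all move alike. For Hand2, Gata3, Isl1 and Tubb3 the groups overlapped, while others, such as Phox2a and Ncam1, were lower in every si-circRtn4 library.

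The levels spanned a wide range. Hspa9, the matrix Hsp70 (mortalin), was the most abundant with a mean of 172 FPKM over the 6 libraries, and 98.3% of the genes tested lay below it. Timm13, Tomm5, Tomm20, Timm8b and Tomm22 followed at means of 75.1, 69.0, 67.3, 64.5 and 58.1 FPKM, and the ranges of neighbours in this order overlapped. Most genes lay between 6.48 FPKM (Dnajc19) and 47.6 FPKM (Timm50). Timm10b at 2.04 FPKM and Tomm40l at 1.49 FPKM were the lowest genes tested. Tomm6, Tomm20l and Timm8a2 had 0 to 3 reads per library, at most 0.184 FPKM, and were not tested. For Tomm6, which encodes a small TOM subunit, this value is uncertain, since 76.0% of its exon bases are overlapped by other genes on the same strand. Gm21981, which shares 69.1% of the 50-base windows of the Tomm6 transcripts, was itself at 0 to 0.0236 FPKM. Of the 37 genes, 18 have exon bases overlapped by another gene on either strand and 7 share 5% or more of their windows with another gene, so that reads could be split or joined in the authors' counting. The lengths behind FPKM equal the exon bases of GENCODE M21 for 34 of the 37 genes. For Grpel2 the table gives 4030 bases against 6759, for Timm21 1315 against 3722 and for Hspa9 3932 against 4310, so that the levels of these 3 genes beside other genes depend on the length used. Their ratio of FPKM between groups does not. Their log2 fold change on log2(FPKM + 1) does to some extent, because 1 is added after the division by length.

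**Figure D1:**
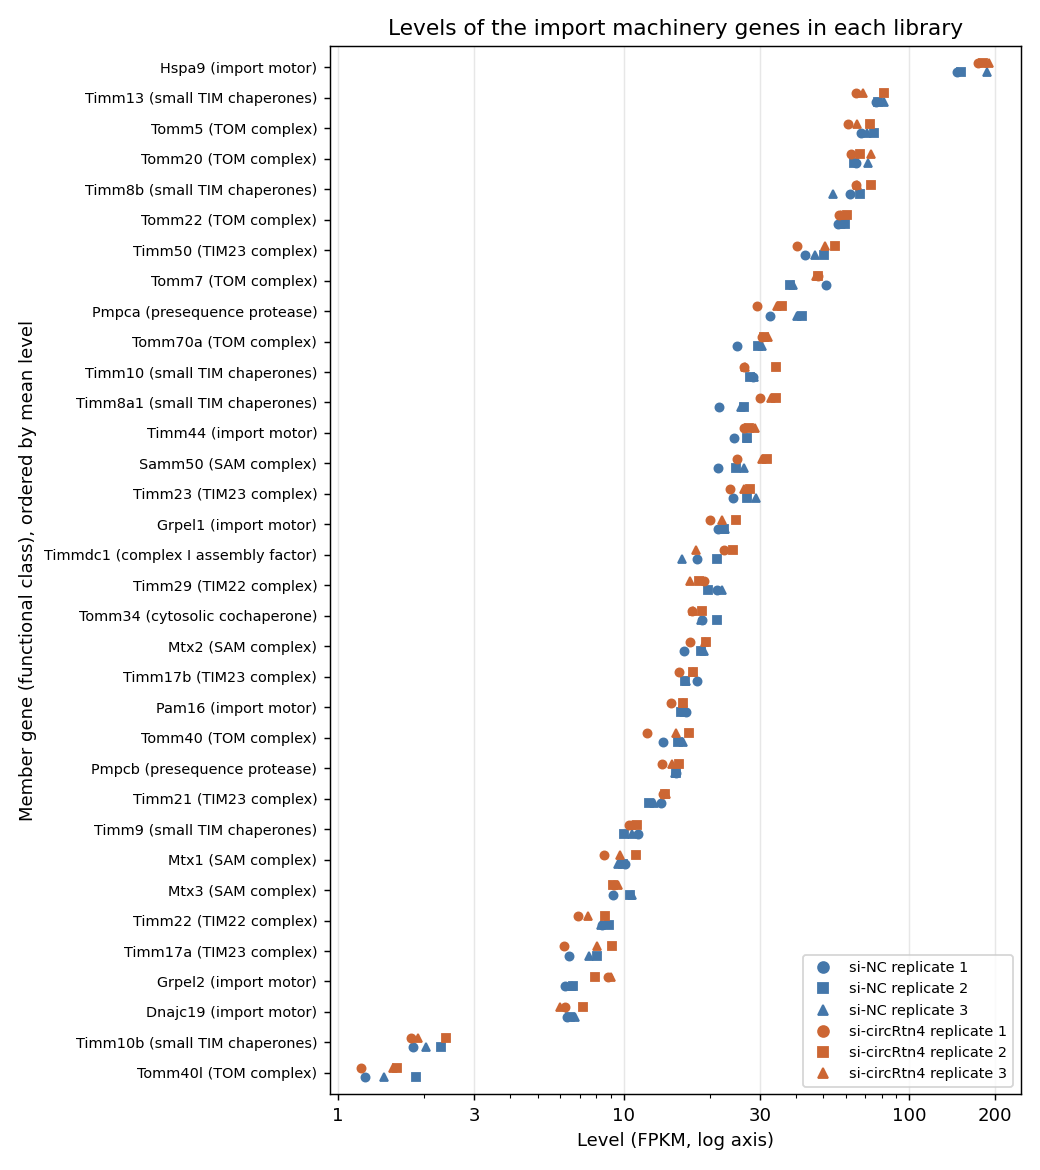
Levels of the 34 import machinery genes tested, in FPKM on a log axis, ordered by mean level, with 1 point for each library, si-NC in blue and si-circRtn4 in orange and the replicate number given by the marker shape. Hspa9 stands highest at a mean of 172 FPKM and Tomm40l lowest at 1.49 FPKM, and the blue and orange points of most genes overlap.

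The summed level of all 37 genes was 978, 1031 and 1056 FPKM in si-NC and 989, 1115 and 1066 FPKM in si-circRtn4, and the groups overlapped (means 1022 ± 39.5 and 1056 ± 63.6 FPKM, SD, n = 3 each). The exact permutation test, two-sided, gave p = 0.4, and 3 libraries against 3 can reach 0.1 at best. Of the 34 genes tested, 18 had a log2 fold change above 0 and 16 below 0. Their median was 0.0084, beside 0.0020 for all genes tested. Within 0.25 of 0 on the log2 scale lay 94.1% of the import genes and 71.3% of all genes tested. Among genes whose mean reached 5 FPKM, these shares were 93.8% of 32 import genes and 75.4% of all 8381 genes. The ranges of both groups did not overlap for 5 of the 34 genes (14.7%), against 31.7% of all genes tested. These were Timm8a1, Grpel2, Timm21 and Tomm70a, which were higher in si-circRtn4, and Timm29, which was lower, where 16.2% of all genes tested were higher and 15.5% lower without overlap. At an unadjusted p under 0.05 in limma stood 3 of the 34 (Timm8a1, Grpel2 and Timm29, 8.82%), against 25.9% of all genes tested.

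**Figure D2:**
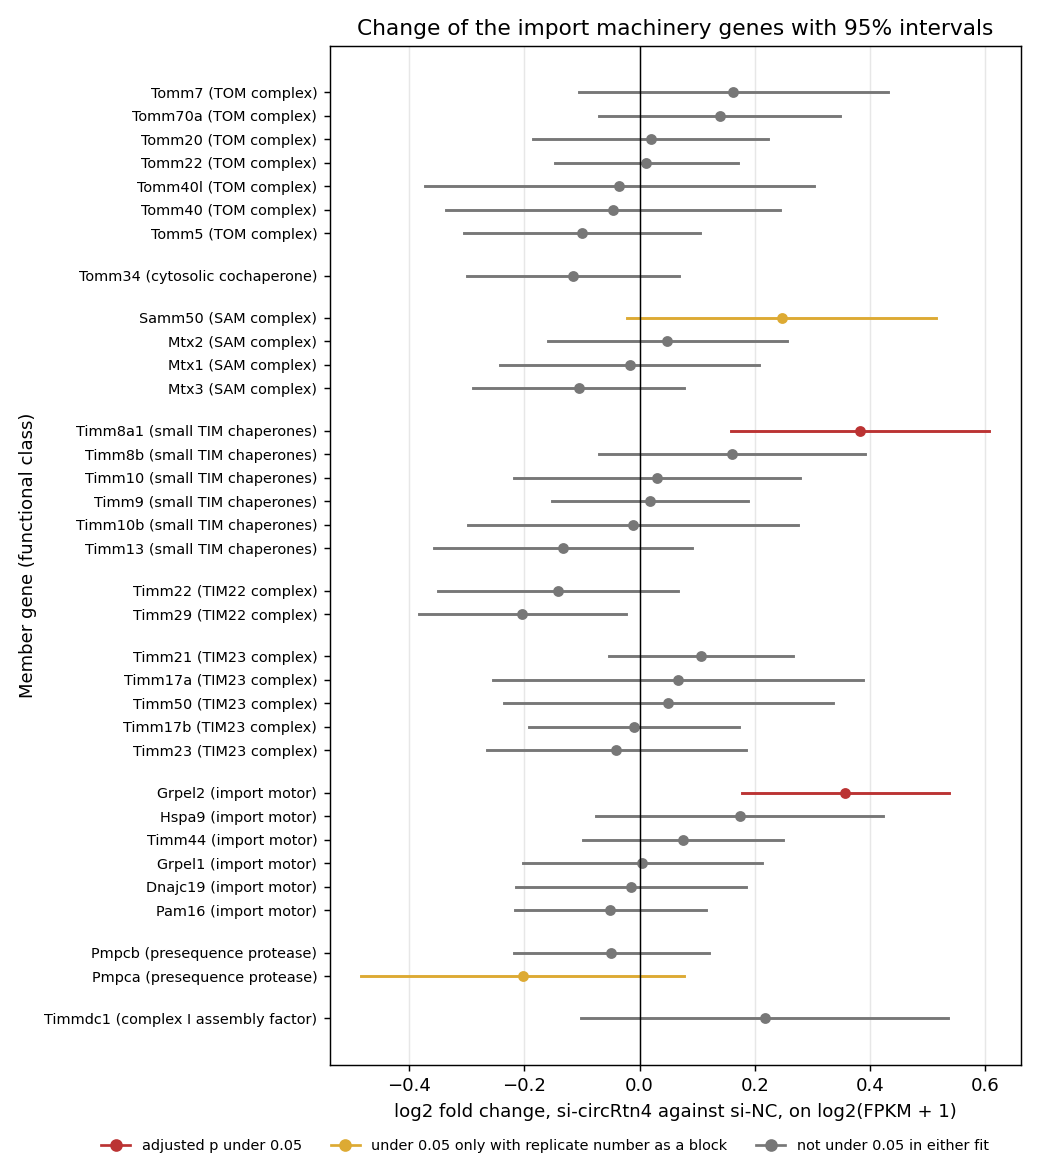
Log2 fold change of si-circRtn4 against si-NC on the log2(FPKM + 1) scale for each import machinery gene tested, grouped by function, with bars for the 95% confidence interval of limma. Timm8a1 at 0.38 and Grpel2 at 0.36 are in red (adjusted p under 0.05), Samm50 and Pmpca in yellow are under 0.05 only with replicate number as a block, and the other genes in grey lie between -0.20 and 0.22.

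At the outer membrane, 0 of the 7 TOM genes tested were called, and their log2 fold changes lay between -0.10 and 0.16 with a median of 0.012. The receptors Tomm20 and Tomm22 bind presequences. Tomm20 ranged from 62.6 to 73.5 FPKM and Tomm22 from 56.1 to 60.7 FPKM over the 6 libraries. Tomm40, the channel, ranged from 12.1 to 16.9 FPKM. Its paralog Tomm40l was at 1.20 to 1.88 FPKM, and 64.3% of its exon bases are overlapped by Nr1i3 on the other strand. Tomm70a, a receptor for carrier precursors delivered by cytosolic chaperones, was at 24.9, 29.5 and 30.4 FPKM in si-NC and at 30.5, 30.9 and 32.0 FPKM in si-circRtn4. All its si-circRtn4 values lay above all its si-NC values, although the highest of one group and the lowest of the other were close (two-sided exact permutation test, p = 0.1).

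The largest absolute log2 fold change of the TOM genes tested was that of Tomm7 (ENSMUSG00000028998, GRCm38 chromosome 5, 23838944 to 23844161, minus strand), a small subunit that also helps to hold PINK1 at damaged mitochondria. It was at 51.2, 38.1 and 39.3 FPKM in si-NC and at 48.0, 48.0 and 47.0 FPKM in si-circRtn4. The si-NC replicate 1 was the highest of all libraries, and the other si-NC libraries lay below every si-circRtn4 library. The log2 fold change was 0.16 (SE 0.11, limma adjusted p = 0.428). When 1 library was left out, it was 0.086 to 0.30 (limma adjusted p 0.0590 to 0.761). The largest change and the smallest adjusted p were those without si-NC replicate 1.

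Some TOM genes have pseudogenes that are expressed here, named after their values were seen. Gm8069, a processed copy that shares 5.4% of the windows of the small subunit Tomm5, was at 6.02, 7.21 and 6.50 FPKM in si-NC and at 9.59, 10.0 and 8.93 FPKM in si-circRtn4. It rose by 0.47 on the log2 scale (SE 0.086, limma adjusted p = 0.0180), with every si-circRtn4 library above every si-NC library. Tomm5 itself was at 67.8, 75.1 and 71.3 FPKM in si-NC and at 61.1, 73.1 and 65.8 FPKM in si-circRtn4, and its groups overlapped. Gm14494, a copy that shares 5.9% of the windows of Tomm20, was at 51.9 to 75.9 FPKM in si-NC and 68.7 to 82.2 FPKM in si-circRtn4 (limma adjusted p = 0.309). Reads shared between the copies and their parent genes were not tested.

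Tomm34 (ENSMUSG00000018322, chromosome 2, 164053540 to 164071169, minus strand) encodes a cytosolic cochaperone that hands precursors over to the mitochondrion. Its levels of 18.8, 21.2 and 18.6 FPKM in si-NC and 17.4, 18.8 and 17.5 FPKM in si-circRtn4 overlapped, and each si-circRtn4 library lay below the si-NC library of the same number. The test gave a log2 fold change of -0.12 (SE 0.079, limma adjusted p = 0.411).

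Of the SAM genes, 4 were tested and 0 were called. Samm50 (ENSMUSG00000022437, chromosome 15, 84192241 to 84217267, plus strand), the β-barrel core of the complex, was at 21.4, 24.8 and 26.4 FPKM in si-NC and at 24.9, 31.6 and 30.4 FPKM in si-circRtn4. Each si-circRtn4 library was above its numbered partner, and the lowest of them lay within the si-NC range. The means were 24.2 ± 2.53 and 29.0 ± 3.60 FPKM (SD, n = 3 each) and the log2 fold change was 0.25 (95% confidence interval -0.02 to 0.52, limma adjusted p = 0.230). With replicate number as a block in the fit, Samm50 was called (limma adjusted p = 0.0378), as were 19.0% of all genes tested. The metaxins Mtx1, Mtx2 and Mtx3, the outer partners of Samm50, had means of 9.80, 18.3 and 9.74 FPKM, and their groups overlapped. For Mtx1, 30.1% of the exon bases are overlapped by genes on the other strand. Just after the start site of Samm50, its promoter reads on the plus strand of GRCm38 as follows, with letters that match the YY1 motif in capitals:
Samm50, chr15:84192239-84192268: taggtggtacAACATGGCGgcgctcggcac

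Of the small TIM chaperones, 6 were tested and 1 was called. Timm8a1 (ENSMUSG00000048007, chromosome X, 134537256 to 134541865, minus strand) is the mouse counterpart of human TIMM8A, whose loss causes deafness-dystonia syndrome. It was at 21.6, 26.3 and 25.6 FPKM in si-NC and at 29.9, 34.0 and 32.7 FPKM in si-circRtn4. Every si-circRtn4 library lay above every si-NC library. The means were 24.5 ± 2.56 and 32.2 ± 2.11 FPKM (SD, n = 3 each), from 463 to 752 reads per library. The rise was 0.38 on the log2 scale (SE 0.096, 95% confidence interval 0.16 to 0.61), with an adjusted p of 0.0492 from limma, close to the threshold. With replicate number as a block the adjusted p was 0.0111 in limma. When 1 library was left out, the log2 fold change was 0.30 to 0.43 and the adjusted p 0.0731 to 0.146 in limma, so that the call was lost without any 1 of the 6 libraries.

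The annotated exons of Timm8a1 overlap no other gene. However, 41.0% of the 50-base windows of its transcripts also occur in transcripts of Gm9797, a transcribed pseudogene. Gm9797 was at 0.757, 0.339 and 0.233 FPKM in si-NC and at 1.03, 1.05 and 1.01 FPKM in si-circRtn4, too low to be tested. Both genes were higher in every si-circRtn4 library, and the authors' counting could split reads between them, so that the value of Timm8a1 is uncertain to that extent. The sharing of reads was not tested.

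The partner of Timm8a1 in its chaperone complex is Timm13. Timm13 was at 76.1, 77.8 and 81.7 FPKM in si-NC and at 65.0, 81.4 and 69.0 FPKM in si-circRtn4. The lowest and the second highest library of all 6 were both from si-circRtn4, and the groups overlapped (two-sided exact permutation test, p = 0.3). The paralog Timm8b ranged from 53.9 to 73.6 FPKM, while Timm9 and Timm10, which make up the general carrier chaperone, ranged from 9.98 to 11.2 and from 26.4 to 34.1 FPKM. None of these 4 genes was called.

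Both genes of the TIM22 complex had lower means in si-circRtn4 and 0 were called. Timm29 (ENSMUSG00000048429, chromosome 9, 21592722 to 21595970, plus strand), a subunit of the complex in animals, was at 21.2, 19.8 and 22.1 FPKM in si-NC and at 19.0, 18.3 and 17.1 FPKM in si-circRtn4. All its si-circRtn4 values lay below all its si-NC values. The log2 fold change was -0.20 (SE 0.077, limma adjusted p = 0.149, and 0.0959 with replicate number as a block). Timm22, the channel of the complex, was at 8.37, 8.91 and 8.35 FPKM in si-NC and at 6.93, 8.60 and 7.48 FPKM in si-circRtn4, with 1 si-circRtn4 library inside the si-NC range. The summed level of both genes was 29.6, 28.7 and 30.5 FPKM against 26.0, 26.9 and 24.6 FPKM. This was the only sum of a functional class of more than 1 gene in which the groups did not overlap (two-sided exact permutation test, p = 0.1). The exact p of the other 6 such classes lay between 0.3 and 0.8. These p-values were not adjusted for the number of classes, and Timm29 made up most of the TIM22 sum. A match to the ETS motif, in capitals, lies upstream of the start of Timm29 on the plus strand:
Timm29, chr9:21592500-21592529: gctctgaccaCTTCCGGgctccactcaccg

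In the TIM23 complex, 0 of 5 genes were called, and the median log2 fold change was 0.050. Timm21, which docks the complex to TOM and to the respiratory chain, was at 13.5, 12.3 and 12.7 FPKM in si-NC and at 13.7, 13.9 and 14.1 FPKM in si-circRtn4. The groups did not overlap, but the gap between them was small. Its log2 fold change was 0.11 (SE 0.069, limma adjusted p = 0.378), from 233 to 285 reads per library. Timm50, the presequence receptor, and Timm23, the channel-forming core, had means of 47.6 and 26.3 FPKM. For Timm23 the value is uncertain, since 57.5% of the windows of its transcripts also occur in copies such as Gm10273, each of which was at 1.23 FPKM or less. The alternative subunits Timm17a and Timm17b were at 6.20 to 9.10 and 15.7 to 18.1 FPKM.

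Of the import motor genes, 6 were tested and 1 was called. Grpel2 (ENSMUSG00000024580) releases ADP from Hspa9 and is a paralog of Grpel1, the main exchange factor. It was at 6.21, 6.64 and 6.58 FPKM in si-NC and at 8.79, 7.94 and 9.03 FPKM in si-circRtn4. The si-NC libraries lay close together and every si-circRtn4 library lay above them. The means were 6.48 ± 0.231 and 8.59 ± 0.573 FPKM (SD, n = 3 each), from 371 to 529 reads per library. Grpel2 rose by 0.36 on the log2 scale (SE 0.077, 95% confidence interval 0.18 to 0.54), with an adjusted p of 0.0310 from limma. When 1 library was left out, the adjusted p was 0.0516 to 0.0938 and the log2 fold change 0.32 to 0.41 in limma, so that this call too was lost without any 1 of the libraries.

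Grpel1 was at 21.3, 22.4 and 22.6 FPKM in si-NC and at 20.0, 24.7 and 22.0 FPKM in si-circRtn4. Its si-circRtn4 libraries lay on both sides of the si-NC range. Hspa9 itself was at 146, 151 and 187 FPKM in si-NC and at 174, 181 and 190 FPKM in si-circRtn4, and the groups overlapped through si-NC replicate 3. The other motor genes were Timm44, which anchors Hspa9 at the channel, the J-protein Dnajc19 and the J-like protein Pam16. None of the 3 was called. Their ranges were 24.4 to 28.8, 5.96 to 7.18 and 14.6 to 16.5 FPKM, and 20.0% of the windows of Pam16 also occur in Gm9803.

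The presequence protease consists of Pmpca and Pmpcb, and neither was called. Pmpca (ENSMUSG00000026926, chromosome 2, 26389339 to 26397122, plus strand), the subunit that binds the substrate, was at 32.5, 42.0 and 40.5 FPKM in si-NC and at 29.2, 35.7 and 34.4 FPKM in si-circRtn4. The groups overlapped through si-NC replicate 1, which lay below 2 of the si-circRtn4 libraries, and each si-circRtn4 library lay below its numbered partner. The log2 fold change was -0.20 (SE 0.12, limma adjusted p = 0.340), and with replicate number as a block Pmpca was called (limma adjusted p = 0.0492). A share of 20.4% of its exon bases is overlapped by Inpp5e on the other strand, and reads of both cannot be told apart without strand. Pmpcb, the catalytic subunit, ranged from 13.7 to 15.6 FPKM. The promoter of Pmpca holds a match to the ETS motif, in capitals, on the plus strand:
Pmpca, chr2:26389285-26389314: gctcggcgggCCGGAAGccagcgccgaacg

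Timmdc1 (ENSMUSG00000002846, chromosome 16, 38498347 to 38522663, minus strand) carries the Timm name but encodes an assembly factor of respiratory complex I. It was at 18.0, 21.2 and 15.9 FPKM in si-NC and at 22.5, 24.2 and 18.0 FPKM in si-circRtn4. Each si-circRtn4 library lay above its numbered partner, and the groups overlapped. Its log2 fold change was 0.22 (SE 0.14, limma adjusted p = 0.370, and 0.0538 with replicate number as a block).

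**Figure D3:**
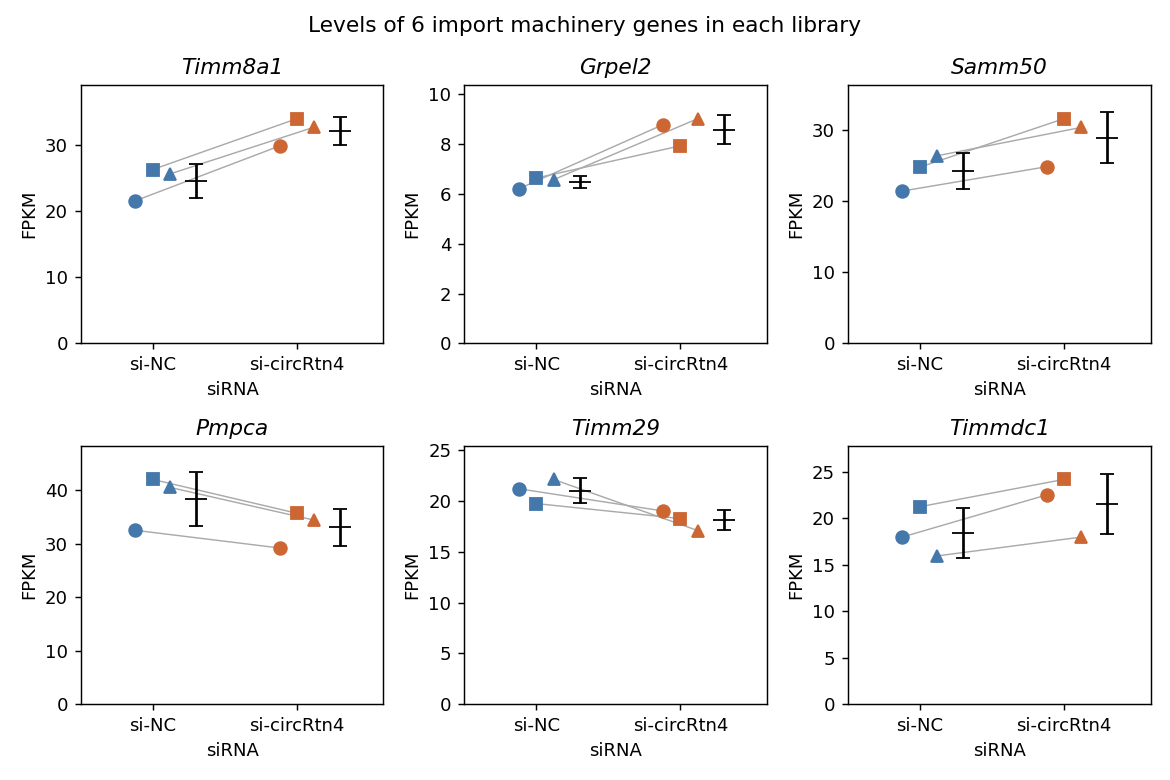
FPKM of 6 import machinery genes in each library, with grey lines joining libraries of the same replicate number, marker shapes for the replicate number and black bars for the mean and SD (n = 3). Timm8a1 and Grpel2 are higher in all si-circRtn4 libraries, Timm29 is lower in all of them, and Samm50, Pmpca and Timmdc1 overlap while all 3 pairs move in 1 direction.

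Libraries with the same replicate number deviated together. In 17 of the 34 import genes (50.0%), replicate 1 was the lowest of the 3 libraries in both groups, against 22.8% of all genes tested. These included Hspa9, Samm50, Pmpca, Timm8a1 and Tomm40. The read total of replicate 1 was the highest in si-NC and the lowest in si-circRtn4, and its part in this pattern was not tested. Taken pair by pair, 10 of the 34 genes (29.4%) were higher in all 3 si-circRtn4 libraries and 5 (14.7%) were lower in all 3, against 28.4% and 28.3% of all genes tested. With replicate number as a block, 4 of the 34 (11.8%) were called, against 19.0% of all genes tested. They were Timm8a1, Grpel2 and Samm50 as higher, where 9.29% of all genes were called higher, and Pmpca as lower, where 9.75% were.

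Ratios between paralogs or partner subunits cancel the depth of a library, and 6 were computed. Grpel2 stood at 0.292, 0.297 and 0.291 of Grpel1 in si-NC and at 0.439, 0.321 and 0.410 in si-circRtn4. Timm8a1 stood at 0.284, 0.338 and 0.314 of Timm13 in si-NC and at 0.460, 0.418 and 0.474 in si-circRtn4. The level of the first ratio depends on the length taken for Grpel2, but not its comparison between groups. In both ratios the groups did not overlap (two-sided exact permutation test, p = 0.1 each, adjusted p = 0.3 over the 6 ratios). The ratios of Timm8a1 to Timm8b (p = 0.3), Timm17a to Timm17b (p = 0.6), Tomm40l to Tomm40 (p = 1) and Timm9 to Timm10 (p = 1) overlapped by the same exact permutation test. The pairs were chosen after the values had been seen.

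**Figure D4:**
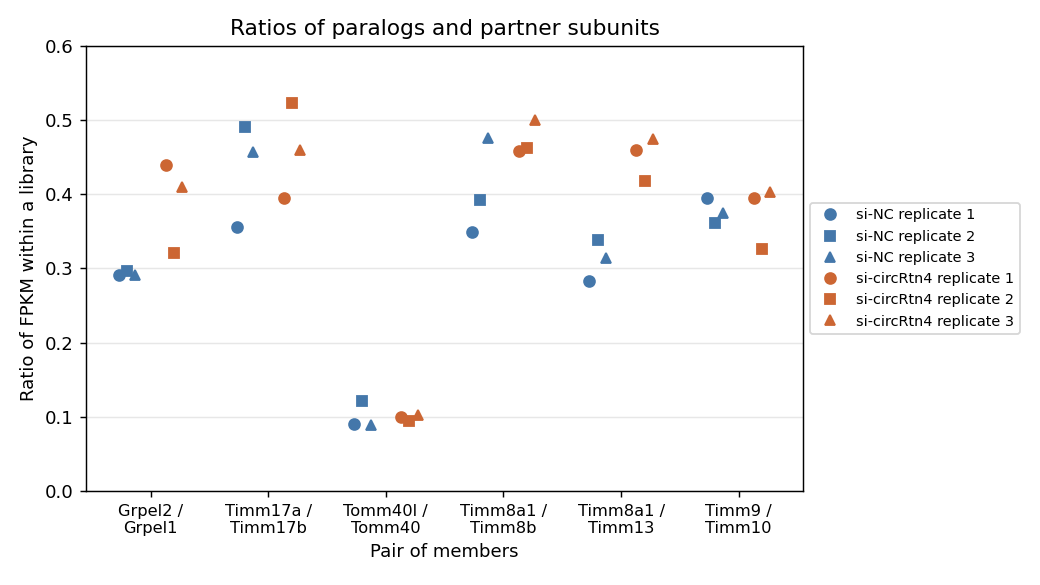
Ratio of the FPKM of 2 import machinery genes within each library, for 6 pairs of paralogs or partners, si-NC in blue and si-circRtn4 in orange, with the replicate number given by the marker shape. The ratios Grpel2 to Grpel1 and Timm8a1 to Timm13 lie higher in all 3 si-circRtn4 libraries, and the other 4 pairs overlap.

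Seed sites of the small RNAs of this experiment were sought in the import genes, each by its longest 3′ UTR in the annotation. A small RNA pairs with its targets chiefly through its bases 2 to 8. The siRNA as the study lists it, its guide strand taken as the reverse complement, and miR-24-3p, a microRNA that circRtn4 was proposed to bind, read as follows, with the seed or its site in capitals (miR-24-3p from RefSeq):
si-circRtn4 as listed: cttcagatgagACCCTTTt
si-circRtn4 guide: aAAAGGGTctcatctgaag
mmu-miR-24-3p: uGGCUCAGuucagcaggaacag

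The site of the guide seed (ACCCTTT) was found in 3 of the 34 import genes tested (8.8%), against 12.5% of the 10689 protein-coding genes tested that have such a UTR. Tomm6, Tomm20l and Timm8a2, which were not tested, held neither this site nor that of miR-24-3p. The 3 tested genes with the guide site were the receptor Tomm20, the channel paralog Tomm40l and Timm17a, and none of them was called. The site of miR-24-3p (CTGAGCC) was found in 5 (14.7%), Tomm70a, Tomm40l, Timm13, Timm50 and Grpel2, against 19.6%. Of these, Grpel2 was called and it rose, while Timm8a1 held neither site in its UTR of 850 bases. The contexts are shown in transcript sense of GENCODE M21, with the site in capitals (that of Grpel2 is not shown):
Tomm20, guide: atgcttcagctACCCTTTggggcaggtag
Tomm40l, guide: tccagcgctgtACCCTTTccaggccagtg
Timm17a, guide: aactgaatgaaACCCTTTccagtgttgtt
Tomm70a, miR-24-3p: ctgcttttatcCTGAGCCattttaccagc
Tomm40l, miR-24-3p: ggcatagatgtCTGAGCCtgcactgttga
Timm13, miR-24-3p: tgacagaggttCTGAGCCagtaggagaaa
Timm50, miR-24-3p: agacttgatgcCTGAGCCttgggccccag

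Promoter letters, which the choice by name did not use, were compared as a description with no test. RefSeq promoters of GRCm38.p6, from 250 bases before to 50 after the start, were matched for 32 of the 37 genes and searched on both strands. The ETS motif (CCGGAAG), bound among others by the nuclear respiratory factor GABP, was in 16 of them (50.0%), against 22.01% of 8532 protein-coding genes tested and 9.93% of all 27025 genes with a promoter. The 32 include Tomm6, Tomm20l and Timm8a2, which were not tested, so the sets are not fully alike. Timm8a2 is among the 16. The YY1 motif (AANATGGCG) was in 5 (15.6%), against 6.72% and 2.76%, and the NRF1 motif in 3 (9.4%), against 12.66% and 5.19%. The amino acid response letters bound by ATF4 (TGATGNAA) and the cAMP response element (TGACGTCA) were in 0 of the 32, against 2.7% and 3.95% of the protein-coding genes tested. The motifs were chosen after values had been seen, and a match is a run of letters and no measured binding.

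Timm8a1 held none of the 5 motifs in its promoter, and Grpel2 was not among the 32 genes. Besides the windows of Samm50, Timm29 and Pmpca above, 4 matches are shown for genes named here, read along the gene's own strand with the motif in capitals. In Tomm70a, Timmdc1 and Tomm34 the ETS letters lie shortly before a start, and in Timm8b the NRF1 letters lie just after it:
Tomm70a (plus strand), chr16:57121696-57121725: atgccccgggCTTCCGGtgacctctggccc
Timmdc1 (minus strand), chr16:38522677-38522706: aggggcggggCTTCCGGtctcctttccgag
Tomm34 (minus strand), chr2:164071092-164071121: gcagccctagCTTCCGGgtggaagctgttg
Timm8b (plus strand), chr9:50603909-50603938: cgctgccaccGCGCGTGCGCaccccagcga

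**Figure D5:**
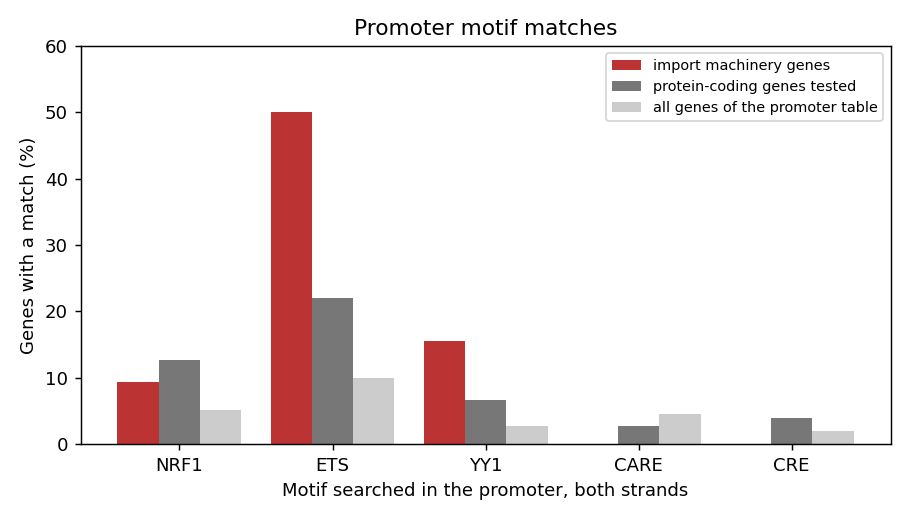
Share of genes, in percent, whose promoter (250 bases before to 50 after the start) matched each of 5 motifs on either strand, for the 32 import machinery genes with a promoter (red), the protein-coding genes tested (dark grey) and all genes of the promoter table (light grey). The ETS motif reaches 50.0% in the import genes against 22.01% and 9.93%, and the last 2 motifs have no red bar because 0 of the 32 genes matched.

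Of 37 further genes of the import pathway (the disulfide relay, folding and quality control in the matrix, the cristae organizing complex MICOS, outer membrane proteins and cytosolic chaperones), 37 were tested and 2 (5.41%) were called, against 9.19% of all genes tested. Lonp1, the ATP-dependent protease of the matrix, was at 96.2, 80.9 and 100.1 FPKM in si-NC and at 128, 135 and 123 FPKM in si-circRtn4. All its si-circRtn4 libraries were above all si-NC libraries, and it rose by 0.48 on the log2 scale (SE 0.097, limma adjusted p = 0.0255). Minos1, which encodes the MICOS subunit that bends cristae membranes, was at 61.8, 67.8 and 66.6 FPKM in si-NC and at 47.8, 56.8 and 48.0 FPKM in si-circRtn4. Its groups did not overlap either, and it fell by 0.36 on the log2 scale (SE 0.090, limma adjusted p = 0.0486). When 1 library was left out, Lonp1 kept its call in 2 of 6 fits and Minos1 in 1 of 6.

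The median log2 fold change of these 37 genes was 0.019, with 20 above 0 and 17 below. Their groups did not overlap in 11 genes (29.7%), 8 higher and 3 lower, near the 31.7% of all genes tested. Chchd4 and Gfer, the enzyme pair of the disulfide relay that folds the small TIM proteins, were among the 8. Chchd4 was at 8.15, 7.92 and 8.96 FPKM in si-NC and at 9.26, 10.0 and 9.96 FPKM in si-circRtn4 (limma adjusted p = 0.148), and Gfer was at 19.6, 18.1 and 17.3 FPKM and at 23.8, 20.5 and 19.8 FPKM (adjusted p = 0.204). Aifm1, the other relay gene listed, went the other way with a log2 fold change of -0.10 (limma adjusted p = 0.634). Its groups overlapped, and each si-circRtn4 library lay below its numbered partner. Chchd4 and Gfer are named after their values were seen. With replicate number as a block 6 of the 37 (16.2%) were called, against 19.0% of all genes tested. This added Immp2l and Vdac3 as higher and Apool and Mtch1 as lower.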

How the data were processed

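Total RNA of 6 N2a libraries was sequenced, and groups and replicate numbers were taken from the sample labels. The authors deposited FPKM values per gene. The submitters' processing notes name Bowtie 0.12.2 and the builds mm8 and mm9 without their roles, while 98.1% of the 54532 genes have the start and end of GENCODE M21 (GRCm38). The counting tool is not given in the sources used here. The table's gene length was used to recover reads, and 100% of values came out whole within 0.01 read. A further 6 columns of per-sample values were not used.

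In R 4.3.3, limma 3.58.1 (lmFit, eBayes with a trend) was fitted to log2(FPKM + 1) of the 12749 genes whose mean reached 1 FPKM, of 28442 above 0. This scale understates the change of low genes. No label says that libraries came from separate cultures, so p-values measure the spread between these libraries, which may be technical. The correlation of deviations from the group mean was 0.331, 0.19 and 0.226 between same-numbered libraries and at most 0.009 between others. Same-numbered libraries thus deviated together, but the main fit and the exact tests took the groups as unpaired. Replicate number as a block was an alternative fit, and its values are given where they change a call. Exact tests used scipy 1.17.1, tables pandas 2.3.3 and numpy 2.4.6, and plots matplotlib 3.10.9, in Python 3.11.15.

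Import genes with values in every library are those called with or without the block and the gene of each functional class with the largest absolute log2 fold change, and others are given by range, sum or ratio. Tomm70a, Tomm5, Timm13, Timm22, Grpel1 and Hspa9 were added after their values were seen. No gene listed carries the symbol Micos10 or Micos13, whereas Minos1 is listed and was tested. The level of 1 neuroblastoma marker is not reported here. The genes, gene lists and tests were chosen with earlier results of these data known. Alternatives were a pseudocount of 0.1, all detected genes, a mean of at least 5 FPKM, leaving out each library, the block, TPM, TPM without Gm23935 (a short gene with 13.5% to 20.7% of the FPKM sum), quantile normalization and limma-voom on recovered reads.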

Additional observations from a re-analysis of the deposited data

How the results depend on the processing

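For Tomm7, Tomm34, Samm50, Timm8a1, Timm29, Timm21, Grpel2, Pmpca, Timmdc1, Lonp1, Minos1 and Rtn4 under 14 alternatives, 0 of 168 fits changed direction. With the block, all detected genes or a mean of at least 5 FPKM, the log2 fold change stays the same by construction. Those fits could therefore not change direction. Most of these genes were also chosen for a call or a large change, which makes a change of direction less likely. Genes near 0 changed direction when 1 library was left out, such as Grpel1 (-0.070 to 0.076). Of the import genes, 2 were called higher in limma (3 genes of either direction at an unadjusted p under 0.05). With a pseudocount of 0.1 the number was 1, with all detected genes tested 0, and without any single library 0. Timm8a1 had an adjusted p of 0.0507 with the pseudocount of 0.1 and 0.116 with all genes, and 6 of 14 alternatives kept its call. Grpel2 had 0.0764 with all genes, and 7 of 14 kept its call. Import genes called lower numbered 1 with the replicate block and 0 otherwise. The median log2 fold change of the import genes was 0.10 as TPM, where the median of all genes was 0.090, and -0.056 to 0.070 when 1 library was left out. The other pathway genes called higher (1) numbered 0 with all genes, 3 with the block, 2 as TPM, 2 in limma-voom and 0 to 1 with 1 library left out. Those called lower (1) numbered 0 with all genes, 3 with the block, 0 as TPM, 0 as TPM without Gm23935 and 0 to 1 with 1 library left out. Their median was 0.11 as TPM and -0.031 (without si-NC replicate 1) to 0.038 with 1 library left out. With the replicate block Rtn4 was also called (adjusted p = 0.0447), and the block ended no call of a named gene. Over all genes, 556 were called higher and 615 lower. These numbers were 1185 and 1243 with the block, 210 and 261 with all genes, 972 and 393 as TPM, 902 and 725 in limma-voom, and 163 to 407 and 217 to 419 with 1 library left out. The cause of these changes was not tested. With 3 libraries per group, the median standard error of the import genes was 0.090 on the log2 scale, which limits the size of change that can be detected.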
